A study of Homo sapiens with 15 samples.

Results

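The hypoxia response and the glycolytic pathway were read through 34 genes, chosen by name: 3 subunits of the hypoxia-inducible factors (HIF), 13 HIF targets outside glycolysis and 18 glycolytic enzymes. A member was read from the transcript cluster, a set of probes summarised to 1 value, that carried its symbol and no other. This held for 31 of the 34 genes, each with 1 cluster, out of 28926 clusters on the array. CA9 and SLC16A3 had no cluster under these names, and PGAM1 was named only on 5 clusters that it shared with PGAM4, so these 3 are not reported. No value of a member was in the lowest 25% of its array.

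The RNA came from MT-2, a single line of CD4+ T cells transformed by the human T-cell leukaemia virus HTLV-1. In each of 3 experiments, cells of this line were cultured for 48 hours without treatment, with ascorbic acid (AA, vitamin C) at 10 µg/ml (low dose), 50 µg/ml (intermediate dose) or 100 µg/ml (high dose), or with interferon alpha 2A (IFN-α) at 1000 IU/ml. This gave 15 arrays, 3 for each of 5 conditions, all of the same line in the same medium. A tag shared by 1 array of each condition defines an experiment. The tags of experiments 2 and 3 differ only by a letter, so how separately these cells were grown is not known. Experiment 1 carries a tag unlike these. P-values measure the spread between these arrays, and 3 arrays per condition limit the precision.

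HIF is a transcription factor made of an oxygen-regulated alpha subunit (HIF1A or EPAS1) and a constant partner, ARNT. Prolyl hydroxylases that need oxygen, iron and 2-oxoglutarate mark the alpha subunit for destruction, and ascorbate is a known cofactor of these enzymes. When hydroxylation fails, HIF binds short DNA elements near its target genes and raises glucose uptake, the glycolytic enzymes, lactate production and factors such as VEGFA, while PDK1 and BNIP3 turn the cell away from its mitochondria. The alpha subunit is regulated mainly as a protein, which these arrays do not measure. In RNA from bulk cells, fewer expressing cells and less RNA per cell cannot be told apart.

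The core of the element that HIF binds reads ACGTG or GCGTG. In the RefSeq promoter table (GRCh38.p14), 31 of the 34 genes had an entry, with 61 start sites in all, and VEGFA, BNIP3L and NDRG1 had none. Within the 250 bases before a start and on both strands, ACGTG occurred in 25 of the 61 promoters (41.0%), against 18.5% of all 35116 promoters, and GCGTG in 23 (37.7%) against 32.2%. At least 1 of these cores was found in 62.3% of the members' promoters and in 43.2% of all promoters. These matches are letters in a window and not measured binding. The members were chosen by name for this pathway, so these shares are background and not a result of these data. Genes with several starts count more than once, and CA9, SLC16A3 and PGAM1 are included though not reported. The sequences of 4 members with a single start are shown as examples of large and small differences: ALDOC (chr17:28576896-28577145, minus strand) and PFKFB4 (chr3:48556804-48557053, minus strand), the members that lay lowest under low- and high-dose AA in experiment 3, BNIP3 (chr10:131981924-131982173, minus strand), next to them at the low dose, and GAPDH (chr12:6535014-6535263, plus strand), which hardly differed. ADM, which was higher there (0.18 and 0.42), is not shown. They are written 5′ to 3′ in the direction of the gene, with each core in capitals on whichever strand it lies (CACGT and CACGC are the cores of the other strand, and CACGTG holds a core on both).
ALDOC: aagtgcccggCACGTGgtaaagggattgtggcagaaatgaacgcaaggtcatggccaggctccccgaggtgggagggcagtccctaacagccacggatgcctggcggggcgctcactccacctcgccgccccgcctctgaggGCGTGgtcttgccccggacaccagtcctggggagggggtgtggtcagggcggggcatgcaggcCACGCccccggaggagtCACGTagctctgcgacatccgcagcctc
PFKFB4: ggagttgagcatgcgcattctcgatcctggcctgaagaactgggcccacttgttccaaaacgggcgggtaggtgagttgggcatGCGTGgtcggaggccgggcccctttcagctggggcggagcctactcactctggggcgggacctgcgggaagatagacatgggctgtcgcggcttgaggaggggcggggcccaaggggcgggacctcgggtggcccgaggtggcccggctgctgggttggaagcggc
BNIP3: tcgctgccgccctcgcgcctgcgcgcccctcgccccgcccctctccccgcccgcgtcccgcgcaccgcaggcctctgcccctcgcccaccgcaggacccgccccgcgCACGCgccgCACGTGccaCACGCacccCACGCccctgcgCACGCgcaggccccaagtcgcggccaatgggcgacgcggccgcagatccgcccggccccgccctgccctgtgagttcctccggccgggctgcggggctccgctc
GAPDH: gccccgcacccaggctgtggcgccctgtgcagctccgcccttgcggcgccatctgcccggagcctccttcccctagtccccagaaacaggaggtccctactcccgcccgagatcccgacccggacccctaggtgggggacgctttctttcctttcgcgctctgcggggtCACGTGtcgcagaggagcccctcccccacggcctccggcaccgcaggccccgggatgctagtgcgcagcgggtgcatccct
ALDOC held 5 matches, BNIP3 held 6, GAPDH held 2 and PFKFB4 held 1. A promoter with ACGTG was found for 19 of the 28 measured members in the table, and their median difference from untreated cells in experiment 3 was -0.46 (log2) under low-dose AA and -0.81 under high-dose AA. For the 9 members without one, the medians were -0.21 and -0.49. This split used ACGTG alone, so it does not set members with a HIF core against members without one. Of the 9, only ARNT and PKM also lacked GCGTG, and HIF1A, EPAS1 and ARNT are HIF subunits. At the low dose the range was -2.13 to -0.06 for the 19 and -1.90 to 0.18 for the 9, so both sets overlapped.

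The array labels were checked on genes outside the module. IFN-α raised MX1 by 3.44, OAS1 by 3.54 and IFI44L by 4.99 on the log2 scale (limma, adjusted p 1.16e-09, 5.63e-12 and 6.21e-10). The 6 markers of the T-cell line had mean log2 values of 7.45 to 13.3, and of the 15 measured markers of other cell types, 12 were below the median of every array, while COL1A1 read 8.27, NCAM1 7.03 and KRT19 6.95. The high-dose array of experiment 3 stood apart. Its mean correlation with the other arrays was 0.976, against 0.991 to 0.995 for the rest, and its spread of values was the narrowest, with an SD of 2.02 against 2.12 to 2.18. The low-dose array of experiment 3 did not stand apart in these measures (0.994, SD 2.13), and a change at the low or high dose is given below also without that dose's array of experiment 3, where it moved by more than 1.5 times.

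No member passed the threshold of the study's methods, an unadjusted p under 0.001 in limma, in any comparison. Against untreated cells this left 0 of 31 members at the low, intermediate and high dose and with IFN-α, beside 0.0207%, 0.0311%, 0.259% and 0.28% of all clusters. High-dose AA against IFN-α (0.65% of clusters) and the slope on the AA dose (0.245%) also gave 0, and no member had an adjusted p under 0.05 in any of them. At an unadjusted p under 0.05 in limma, 0 members were lower at the low dose (1.49% of clusters), 0 at the intermediate dose (1.47%), 2 at the high dose (VEGFA and NDRG1, beside 3.62%), 0 with IFN-α (0.522%), and 2 on the slope (VEGFA and NDRG1 again, beside 3.38%). In the higher direction there were 0 members throughout, beside 1.05%, 0.875%, 7.34%, 0.868% and 8.08% of clusters in the same order, and 7.95% for high-dose AA against IFN-α. The medians nevertheless lay to one side. At the high dose the median log2 change was -0.45 over the 11 HIF targets outside glycolysis and -0.20 over the 17 enzymes, against 0.02 over all clusters, and 30 of 31 members were lower. At the low dose the medians were -0.27 and -0.09 against 0.01, with 28 of 31 lower. The intermediate dose gave -0.08 and -0.0045 with 22 lower, and IFN-α gave 0.03 and 0.04 with 7 lower.

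Within the experiments, these averages came apart. In experiment 3 the AA arrays lay well below the untreated array, in experiment 2 slightly below at the low and high dose, and in experiment 1 level with it or slightly above. In experiment 3, the median member differed from the untreated array by -0.38 (log2) at the low dose, -0.20 at the intermediate dose, -0.67 at the high dose and -0.06 with IFN-α. The number of members lower by more than 0.5 was 12 of 31 at the low dose (2.46% of all clusters), 6 at the intermediate dose (1.8%), 21 at the high dose (10.5%) and 1 with IFN-α (0.75%). Among the brightest 25% of clusters, where most members lie, the share at the high dose was 20.7%. In experiments 1 and 2 no member was lower by that much under any treatment. For low-, intermediate- and high-dose AA and IFN-α in turn, 2.32%, 1.77%, 2.06% and 1.11% of clusters were in experiment 1, and 0.36%, 0.439%, 0.595% and 0.322% in experiment 2. A difference between 2 single arrays has no replicate error of its own, and the value of 0.5 was chosen after the data were seen.

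**Figure D1:**
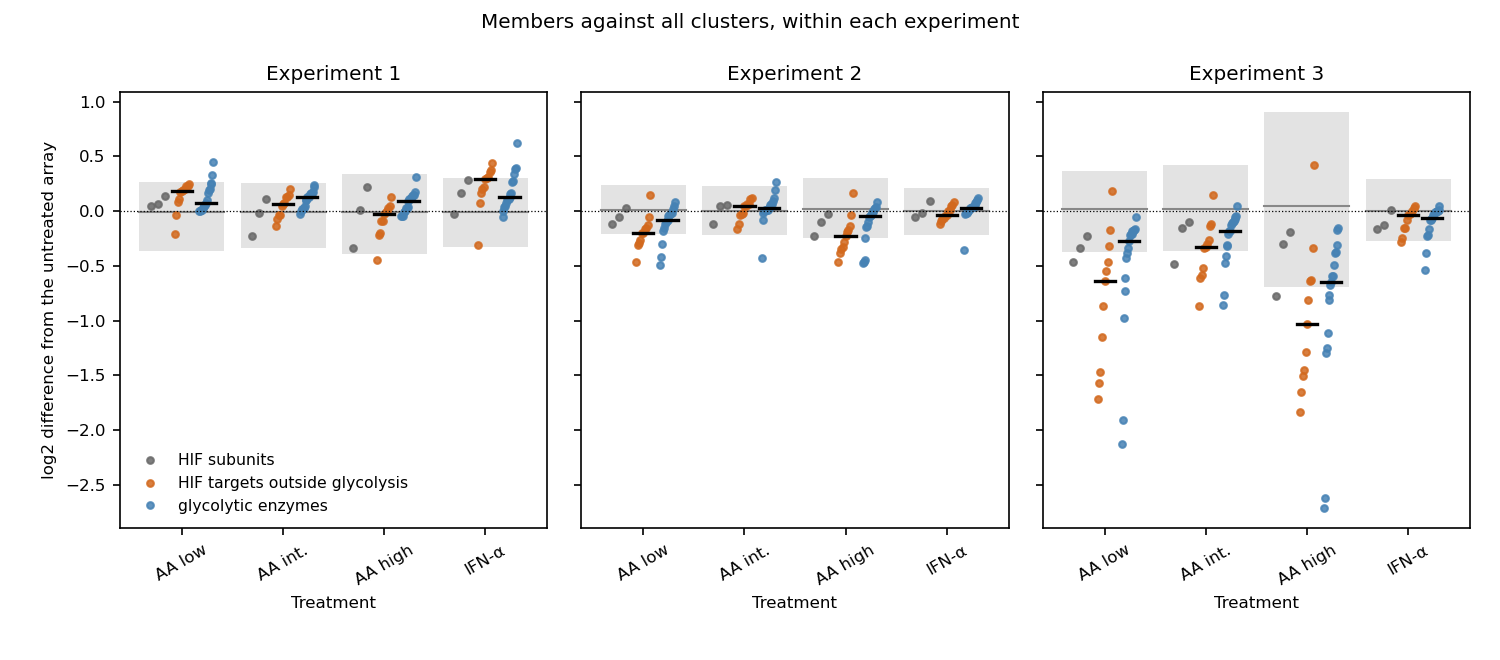
Difference of each member (points, log2) from the untreated array of its experiment under low-, intermediate- and high-dose AA and IFN-α, by group, with black bars at the medians of the 2 larger groups. Grey bands hold the central 90% of all clusters with their median as a line: at the low dose of experiment 3 many members lie well below the band, while in experiment 1 most lie within it or above.

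The low dose of experiment 3 was the clearest case, because that array did not stand apart in its mean correlation or its spread of values. It was not ordinary in every respect. Among the brightest clusters, as defined above, 3.28% were lower by more than 0.5 there. At the low dose of experiments 1 and 2 these shares were 1.16% and 0.07%. The part of the low-dose array of experiment 3 itself in the differences below was not tested. Ordered by their difference from untreated cells, ALDOC, PFKFB4 and BNIP3 were numbers 1, 2 and 3 from the bottom of all 28926 clusters, BNIP3L was number 5 and PDK1 number 8. In all, 9 of 31 members were among the lowest 1% of clusters (289 clusters). On the high-dose array of that experiment 10 members were in the lowest 1%, on the intermediate-dose array 4 and on the IFN-α array 1. In experiment 2 the counts were 3 at the low dose, 4 at the high dose, 1 at the intermediate dose and 0 with IFN-α, and in experiment 1 no member was in the lowest 1% under any treatment. The differences in experiment 2 were small but their order was much as in experiment 3: across the 31 members the Pearson correlation was 0.85 for low-dose AA (Spearman 0.79) and 0.83 for high-dose AA (0.84), against 0.34 and 0.49 over all clusters. Genes are not independent replicates, and the arrays of an experiment share 1 untreated array. Experiments 2 and 3 also have tags alike but for a letter. A response to the dose and a trait of cells grown together therefore cannot be told apart in this likeness. For experiments 1 and 2, the same correlation at the low dose was -0.72 across the members and -0.01 over all clusters. For experiments 1 and 3 it was -0.59 and 0.02. At the high dose it was -0.01 and 0.08 for experiments 1 and 2, and -0.05 and -0.07 for experiments 1 and 3.

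**Figure D2:**
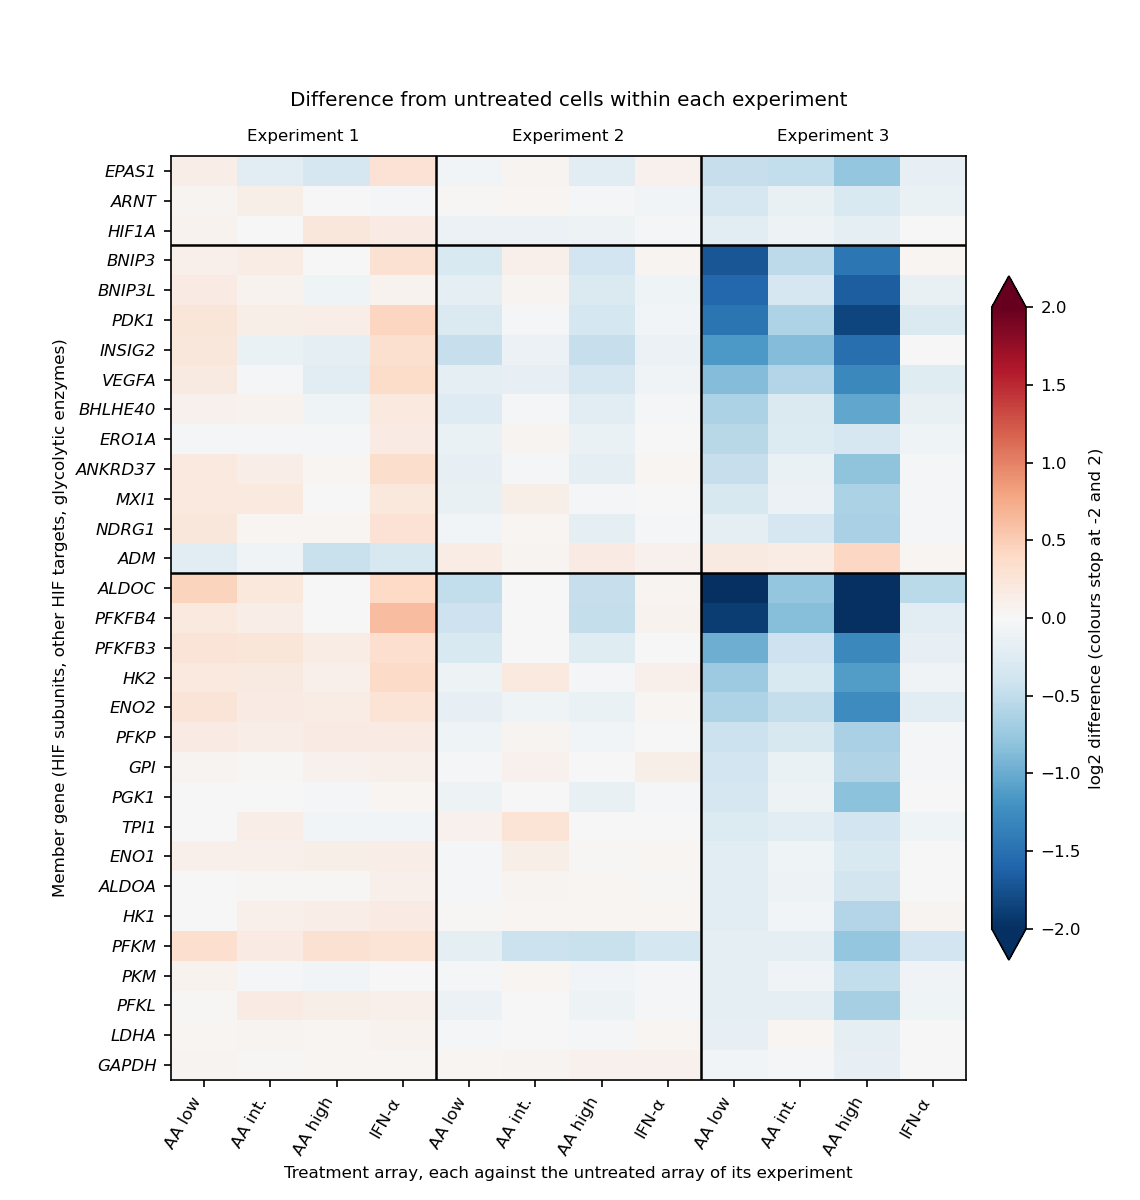
Heat map of the log2 difference of the 31 members (rows, by group) from the untreated array of the same experiment, for 4 treatments in 3 experiments (columns); blue is lower and red higher, with the colours ending at -2 and 2. The darkest cells are those of ALDOC, PFKFB4, BNIP3, BNIP3L and PDK1 at the low and high dose of experiment 3, and of INSIG2 at its high dose. The low- and high-dose columns of experiment 2 are mostly pale blue.

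Of the HIF subunits, HIF1A differed little. Its log2 value in experiments 1, 2 and 3, the order used throughout, was 11.02, 11.00 and 11.04 in untreated cells, 11.09, 10.88 and 10.81 at the low dose, 11.01, 10.88 and 10.94 at the intermediate dose, 11.24, 10.89 and 10.85 at the high dose, and 11.18, 10.98 and 11.06 with IFN-α. All 15 values lay between 10.81 and 11.24 and the groups overlapped, with a change of -0.02 ± 0.11 (SE) at the high dose (limma, adjusted p = 0.946) that turned to 0.05 ± 0.11 without the high-dose array of experiment 3. EPAS1, the alternative alpha subunit, read 8.07, 7.39 and 7.55 in untreated cells, 8.21, 7.33 and 7.08 at the low dose, 7.85, 7.44 and 7.06 at the intermediate dose, 7.74, 7.16 and 6.77 at the high dose, and 8.36, 7.48 and 7.38 with IFN-α. Experiment 1 read highest in every condition, and the high-dose array was the lowest in each experiment. The change at the high dose was -0.44 ± 0.34 (limma, adjusted p = 0.609), and that against IFN-α was -0.52 ± 0.34 (adjusted p = 0.533). They were -0.22 ± 0.36 and -0.29 ± 0.36 without the high-dose array of experiment 3. With the experiment as a fixed block, the latter passed the threshold (-0.52 ± 0.12, adjusted p = 0.0773 in limma), 1 member beside 1.22% of clusters. With the experiment as a random block it did not, and 0 members were called beside 1.03% of clusters. ARNT, the common partner, was within 0.34 of the untreated array of its experiment under every treatment.

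Among the HIF targets that govern mitochondria, BNIP3, which marks mitochondria for autophagy, read 11.28, 11.18 and 11.28 in untreated cells, 11.39, 10.87 and 9.57 at the low dose, 11.44, 11.29 and 10.77 at the intermediate dose, 11.27, 10.80 and 9.83 at the high dose, and 11.58, 11.23 and 11.33 with IFN-α. Its untreated arrays had an SD of only 0.06, while the low- and high-dose arrays of experiment 3 differed from theirs by -1.71 and -1.45, the low-dose array being the lowest of all. Over 3 experiments, low-dose AA gave -0.64 ± 0.39 (limma, adjusted p = 0.9999) and high-dose AA -0.61 ± 0.39 (adjusted p = 0.547). Without the low-dose array of experiment 3 the former was -0.12 ± 0.32, and without the high-dose array the latter was -0.21 ± 0.37. BNIP3L, its close relative in mitophagy, differed by -1.57 and -1.66 at the low and high dose of experiment 3, by -0.20 and -0.28 in experiment 2 and by 0.17 and -0.09 in experiment 1. PDK1, the kinase that shuts off pyruvate dehydrogenase, read 9.63, 9.69 and 9.83 in untreated cells, 9.87, 9.40 and 8.36 at the low dose, 9.75, 9.67 and 9.22 at the intermediate dose, 9.75, 9.34 and 8.00 at the high dose, and 10.06, 9.63 and 9.54 with IFN-α. The untreated arrays had an SD of 0.10, and the low- and high-dose arrays of experiment 3 reached 36.2% and 28.1% of their untreated array on the linear scale. Over 3 experiments the change was -0.50 ± 0.40 under low-dose and -0.68 ± 0.40 under high-dose AA (limma, adjusted p = 0.9999 and 0.515). Each was smaller without its array of experiment 3, at -0.08 ± 0.38 and -0.17 ± 0.32.

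VEGFA, the growth factor of blood vessels, read 9.28, 9.32 and 9.47 in untreated cells, 9.47, 9.12 and 8.61 at the low dose, 9.25, 9.16 and 8.89 at the intermediate dose, 9.06, 8.99 and 8.18 at the high dose, and 9.65, 9.25 and 9.22 with IFN-α. All 3 high-dose arrays lay below all 3 untreated arrays, as did the intermediate-dose arrays, with the lowest value again in experiment 3. The high-dose change of -0.61 ± 0.23 had the smallest p of any member in that comparison (limma, adjusted p = 0.441). Without the high-dose array of experiment 3 it was -0.33 ± 0.20, with a 95% interval of -0.76 to 0.10. NDRG1, a protein induced by hypoxia and by iron chelation, read 9.46, 9.73 and 9.77 in untreated cells, 9.69, 9.68 and 9.60 at the low dose, 9.51, 9.77 and 9.44 at the intermediate dose, 9.49, 9.54 and 9.13 at the high dose, and 9.75, 9.69 and 9.75 with IFN-α. It was lower at the high dose than with IFN-α in all arrays, by -0.34 ± 0.12 (limma, adjusted p = 0.326), and against untreated cells by -0.27 ± 0.12 (adjusted p = 0.449) with overlapping groups. Without the high-dose array of experiment 3, the change against untreated cells was -0.14 ± 0.11 (95% interval -0.37 to 0.09), and that against IFN-α -0.21 ± 0.11. ADM, a vasodilator peptide, went the other way: 7.31, 7.21 and 7.14 in untreated cells, 7.10, 7.36 and 7.32 at the low dose, 7.24, 7.26 and 7.28 at the intermediate dose, 6.86, 7.37 and 7.56 at the high dose, and 6.99, 7.29 and 7.17 with IFN-α. It was above its untreated array at all doses in experiments 2 and 3 and below it in experiment 1, and its change at the high dose was 0.05 ± 0.14 (limma, adjusted p = 0.916), turning to -0.10 ± 0.13 without the high-dose array of experiment 3.

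INSIG2, which holds back the maturation of the sterol regulator SREBP, read 8.69, 8.54 and 8.60 in untreated cells, 8.92, 8.08 and 7.45 at the low dose, 8.55, 8.42 and 7.74 at the intermediate dose, 8.49, 8.08 and 7.09 at the high dose, and 9.00, 8.42 and 8.60 with IFN-α. In experiment 2 it differed by -0.46 under low- and high-dose AA alike, and its high-dose arrays all lay below the untreated arrays. The change at the high dose was -0.72 ± 0.36 (limma, adjusted p = 0.477), and -0.33 ± 0.33 without the high-dose array of experiment 3. BHLHE40, a transcriptional repressor, read 10.95, 10.92 and 10.88 in untreated cells, 11.04, 10.65 and 10.24 at the low dose, 11.02, 10.89 and 10.58 at the intermediate dose, 10.87, 10.69 and 9.84 at the high dose, and 11.16, 10.88 and 10.72 with IFN-α. Its high-dose arrays, too, did not overlap the untreated ones, but in experiments 1 and 2 the differences were only -0.09 and -0.22, and the change was -0.45 ± 0.24 (limma, adjusted p = 0.493), or -0.14 ± 0.19 without the high-dose array of experiment 3. ERO1A, the oxidase that forms disulphide bonds in the endoplasmic reticulum, read 10.99, 10.77 and 10.93 in untreated cells, 10.95, 10.64 and 10.38 at the low dose, 10.96, 10.83 and 10.66 at the intermediate dose, 10.97, 10.64 and 10.59 at the high dose, and 11.16, 10.78 and 10.84 with IFN-α. Of the 3 doses the low dose gave its largest change, -0.24 ± 0.15 (limma, adjusted p = 0.9999), or -0.10 ± 0.15 without the low-dose array of experiment 3. ANKRD37, a small ankyrin repeat protein, read 9.38, 9.38 and 9.31 in untreated cells, 9.58, 9.21 and 8.84 at the low dose, 9.51, 9.34 and 9.17 at the intermediate dose, 9.43, 9.20 and 8.49 at the high dose, and 9.74, 9.42 and 9.27 with IFN-α. MXI1, an antagonist of MYC, read 8.12, 8.06 and 8.08 in untreated cells, 8.32, 7.91 and 7.76 at the low dose, 8.32, 8.18 and 7.96 at the intermediate dose, 8.12, 8.02 and 7.45 at the high dose, and 8.34, 8.06 and 8.05 with IFN-α. For both, the IFN-α array of experiment 1 was the highest of all 15 and the high-dose array of experiment 3 the lowest, and the changes with IFN-α were 0.12 ± 0.22 and 0.06 ± 0.17 (limma, adjusted p = 0.99999 and 0.99999). In all, 4 members had every high-dose array below every untreated array (VEGFA, INSIG2, BHLHE40 and PKM), beside 3.66% of clusters. The count was 0 at the low dose (4.88%), 1 at the intermediate dose (VEGFA, 4.67%), 1 with IFN-α (ARNT, 2.93%) and, for high-dose AA against IFN-α, 2 (VEGFA and NDRG1, 3.74%).

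The glycolytic enzymes are taken in the order of the pathway. HK1 and HK2 phosphorylate glucose on entry. HK1 read 9.66, 9.61 and 9.65 in untreated cells, 9.67, 9.62 and 9.44 at the low dose, 9.76, 9.64 and 9.60 at the intermediate dose, 9.80, 9.64 and 9.06 at the high dose, and 9.81, 9.64 and 9.69 with IFN-α, and HK2, the hypoxia-inducible form, read 10.09, 9.90 and 10.06 in untreated cells, 10.28, 9.80 and 9.33 at the low dose, 10.27, 10.09 and 9.75 at the intermediate dose, 10.20, 9.87 and 8.94 at the high dose, and 10.47, 10.00 and 9.99 with IFN-α. HK1 was lower by more than 0.5 on 1 array only, the high dose of experiment 3, whereas HK2 was also lower at the low dose there, by -0.73, and at the intermediate dose, by -0.31. GPI, the next enzyme, read 12.09, 11.97 and 12.10 in untreated cells, 12.14, 11.94 and 11.72 at the low dose, 12.11, 12.06 and 11.97 at the intermediate dose, 12.18, 11.96 and 11.50 at the high dose, and 12.20, 12.09 and 12.06 with IFN-α. Its differences in experiment 3 were -0.38 under low-dose and -0.60 under high-dose AA, and all its other arrays were within 0.13 of theirs. PFKM, the muscle form of phosphofructokinase, read 8.29, 9.04 and 8.77 in untreated cells, 8.62, 8.85 and 8.59 at the low dose, 8.45, 8.61 and 8.59 at the intermediate dose, 8.60, 8.59 and 8.01 at the high dose, and 8.57, 8.69 and 8.39 with IFN-α. It did not share the pattern of the group: its untreated arrays were spread by an SD of 0.38, and its IFN-α arrays of experiments 2 and 3 lay below the low-dose arrays. PFKL and PFKP, the other forms, were lower by -0.67 and -0.65 at the high dose of experiment 3 and within 0.44 elsewhere.

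PFKFB3 and PFKFB4 set the level of the fructose bisphosphate that activates phosphofructokinase. PFKFB3 read 10.03, 10.01 and 10.11 in untreated cells, 10.28, 9.71 and 9.13 at the low dose, 10.27, 9.99 and 9.69 at the intermediate dose, 10.18, 9.76 and 8.81 at the high dose, and 10.37, 10.02 and 9.94 with IFN-α. It was below its untreated array at the low and high dose in experiments 2 and 3 and above it in experiment 1. PFKFB4 read 8.27, 8.21 and 8.48 in untreated cells, 8.47, 7.80 and 6.58 at the low dose, 8.40, 8.23 and 7.62 at the intermediate dose, 8.27, 7.74 and 5.86 at the high dose, and 8.90, 8.28 and 8.26 with IFN-α. On the linear scale it reached 26.7% of the untreated array of experiment 3 under low-dose AA and 16.2% under high-dose AA. In experiment 2, its differences were -0.42 and -0.48 at those doses and 0.01 at the intermediate dose, and the untreated arrays had an SD of 0.14. Over all arrays the change at the high dose was -1.03 ± 0.53 (limma, adjusted p = 0.479) and, without the high-dose array of experiment 3, -0.32 ± 0.41.

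ALDOC, the aldolase form best known from brain, showed the largest differences of any member. It read 10.67, 10.31 and 10.43 in untreated cells, 11.13, 9.81 and 8.31 at the low dose, 10.89, 10.32 and 9.67 at the intermediate dose, 10.67, 9.85 and 7.72 at the high dose, and 11.07, 10.36 and 9.89 with IFN-α. In experiment 3 it reached 22.9% of the untreated array under low-dose AA and 15.3% under high-dose AA, while in experiment 1 the low-dose array was above the untreated one by 0.45. Its 3 experiments therefore differed in direction at the low dose, and the change of -0.72 ± 0.70 there, like that of -1.06 ± 0.70 at the high dose, was within the spread between arrays (limma, adjusted p = 0.9999 and 0.558). Without the experiment 3 array of the dose, the changes were -0.0026 ± 0.68 and -0.21 ± 0.61. ALDOC was also the only member lower by more than 0.5 with IFN-α, in experiment 3. ALDOA, the ubiquitous aldolase, and TPI1, which interconverts the aldolase products, lay within 0.39 of their untreated arrays throughout.

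GAPDH, the dehydrogenase often used as a reference gene, read 14.03, 14.01 and 14.04 in untreated cells, 14.08, 14.06 and 13.98 at the low dose, 14.06, 14.07 and 14.00 at the intermediate dose, 14.06, 14.10 and 13.88 at the high dose, and 14.07, 14.10 and 14.03 with IFN-α. No cluster was brighter than GAPDH on average over the untreated arrays, and its 15 values spanned 13.88 to 14.10. PGK1, the first enzyme to yield ATP, read 12.55, 12.42 and 12.45 in untreated cells, 12.55, 12.33 and 12.11 at the low dose, 12.55, 12.43 and 12.34 at the intermediate dose, 12.51, 12.28 and 11.63 at the high dose, and 12.59, 12.40 and 12.46 with IFN-α. It was lowest at the high dose in each experiment, by -0.04, -0.15 and -0.82 (limma change -0.33 ± 0.17, adjusted p = 0.483; without the array of experiment 3, -0.08 ± 0.12). ENO1, the common enolase, differed by at most 0.31. ENO2, the neuronal form, read 10.23, 10.49 and 10.57 in untreated cells, 10.49, 10.33 and 9.96 at the low dose, 10.40, 10.41 and 10.10 at the intermediate dose, 10.38, 10.36 and 9.32 at the high dose, and 10.50, 10.52 and 10.34 with IFN-α. Its low-dose and high-dose values in experiment 3 were the lowest, by -0.61 and -1.25, and its change at the high dose was -0.41 ± 0.23 (limma, adjusted p = 0.505), or -0.06 ± 0.15 without that high-dose array. PKM, pyruvate kinase, read 12.92, 12.89 and 12.88 in untreated cells, 13.00, 12.85 and 12.70 at the low dose, 12.90, 12.92 and 12.81 at the intermediate dose, 12.88, 12.85 and 12.39 at the high dose, and 12.92, 12.87 and 12.81 with IFN-α. LDHA, which makes lactate, read 13.30, 13.31 and 13.33 in untreated cells, 13.35, 13.27 and 13.17 at the low dose, 13.35, 13.32 and 13.38 at the intermediate dose, 13.34, 13.28 and 13.16 at the high dose, and 13.38, 13.35 and 13.32 with IFN-α. For PKM the high-dose arrays lay below the untreated ones, though in experiment 1 only narrowly, at a change of -0.20 ± 0.11 (limma, adjusted p = 0.517) that was -0.04 ± 0.08 without the array of experiment 3, whereas LDHA stayed within 0.18 of its untreated arrays. The 6 members with a mean of 12 or more in untreated cells (GAPDH, LDHA, ENO1, PKM, PGK1 and GPI) differed by -0.38 to -0.06 at the low dose of experiment 3, against -2.13 to 0.18 for the other 25. The part of signal level in this was not tested.

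**Figure D3:**
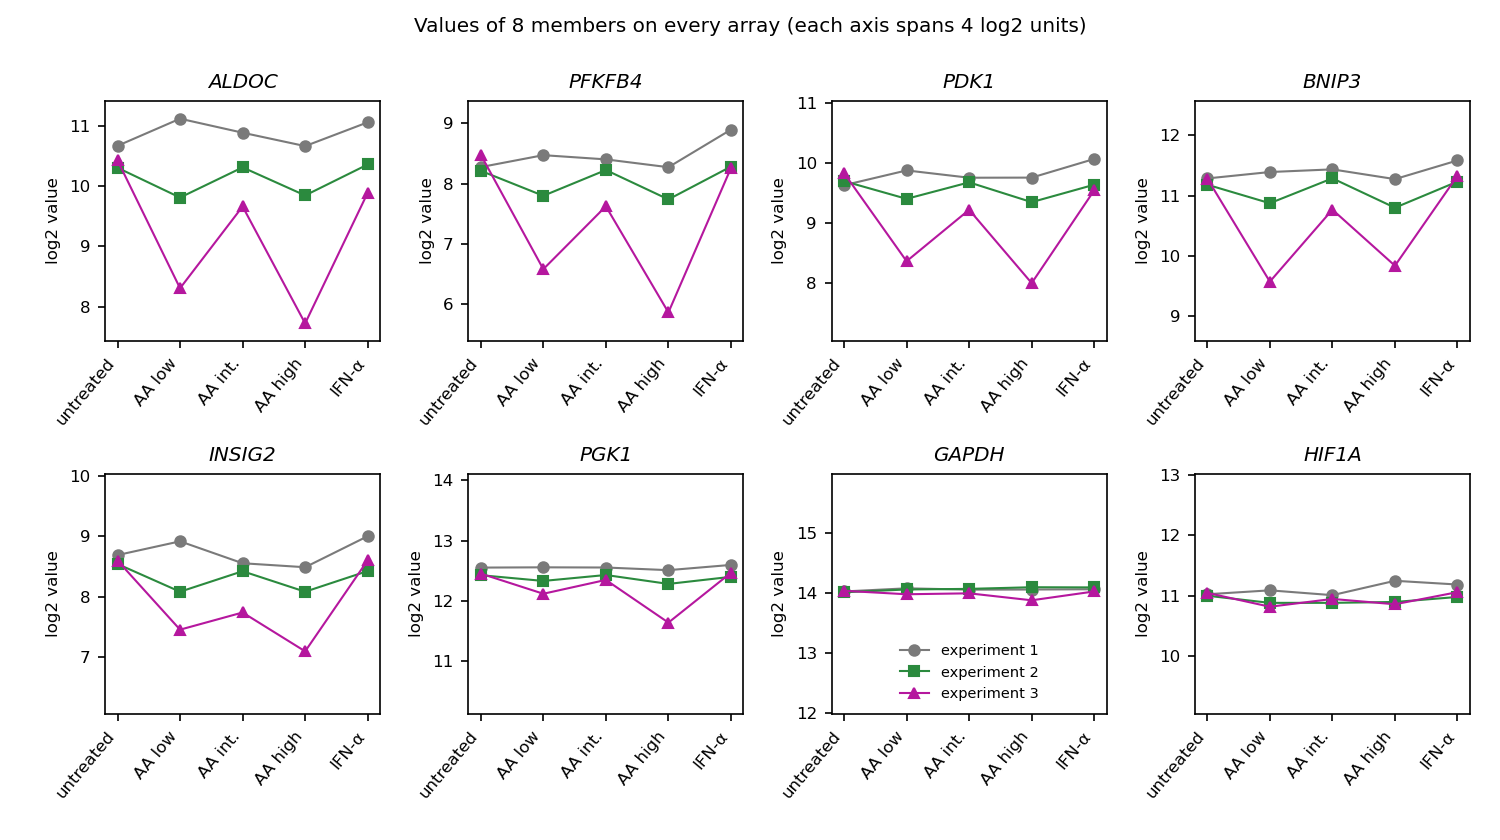
Log2 values of 8 members (panels) on all 15 arrays by condition, with a line for each of the 3 experiments and every axis spanning 4 log2 units. ALDOC, PFKFB4, PDK1, BNIP3 and INSIG2 dip at the low and high dose of experiment 3 and, less deeply, of experiment 2, whereas GAPDH and HIF1A stay level.

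The members did not follow the order of the doses. In experiment 3, the low-dose array was below the intermediate-dose array for 26 of 31 members (48.6% of all clusters), in experiment 2 for 29 (47.1%) and in experiment 1 for 11 (51.4%). The high-dose array was below the intermediate-dose array for 30 members in experiment 3 (45.1% of clusters), 28 in experiment 2 (44.1%) and 21 in experiment 1 (45.8%). In experiment 3, a value that went down at every step of dose was seen for EPAS1, NDRG1 and PFKL (9.80% of clusters). PFKM was level there between the low and intermediate dose. Such a value was seen for 1 member in experiment 2 (4.50%) and 0 in experiment 1 (4.60%). Counted another way, the low-dose and high-dose arrays both lay below the other 3 arrays of their experiment for 26 members in experiment 3 (10.1% of clusters), 22 in experiment 2 (9.68%) and 0 in experiment 1 (7.25%). For 19 members this held in both experiments 2 and 3. Among the brightest 25% of clusters the shares were 18.3% and 14.9%, and this order of arrays was singled out after the values were seen. Fitted as a straight line, the slope per 100 µg/ml was -0.49 ± 0.21 for VEGFA and -0.27 ± 0.11 for NDRG1 (limma, adjusted p = 0.42 and 0.417). The slopes were -0.23 ± 0.18 and -0.15 ± 0.10 without the high-dose array of experiment 3.

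Of the single arrays left out, the one that stood apart moved the high-dose medians most. In experiment 2 alone, the high-dose array was below the untreated array for 26 of 31 members (12478 of 28926 clusters). In experiment 1 this held for 14 members (14763 clusters). Without the high-dose array of experiment 3, the median change was -0.14 over the HIF targets and -0.01 over the enzymes, 22 of 31 members were lower and 0 had a p under 0.05 in limma (beside 1.71% of clusters lower). The slopes without that array had medians of 0.01 and 0.06, with 11 members lower. Without the high-dose array of experiment 1, on the other hand, the medians at the high dose were -0.65 and -0.32 and 16 members had a p under 0.05 in the lower direction, against 10.4% of clusters. Without the low-dose array of experiment 3, the low-dose medians became -0.06 and -0.0047, with 17 of 31 members lower. Without that of experiment 1 they were -0.47 and -0.17, with 29 lower. Over all clusters, the medians without these arrays of experiments 3 and 1 were 0.0030 and 0.01 at the low dose and 0.01 and 0.03 at the high dose. Taking the experiment as a fixed block gave 13 members with a lower p under 0.05 at the high dose (6.5% of clusters), 15 for high-dose AA against IFN-α (7.08%) and 2 at the low dose (2.87%). With a random block these counts were 6 (5.31%), 8 (5.86%) and 0 (2.3%). After cyclic loess normalization, the median member of experiment 3 was at -0.35 under low-dose, -0.13 under intermediate-dose and -0.51 under high-dose AA. The members lower by more than 0.5 then numbered 11, 4 and 16, beside 2.72%, 1.94% and 8.00% of all clusters. The part of the narrower spread of values on the high-dose array in these differences was not tested.

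**Figure D4:**
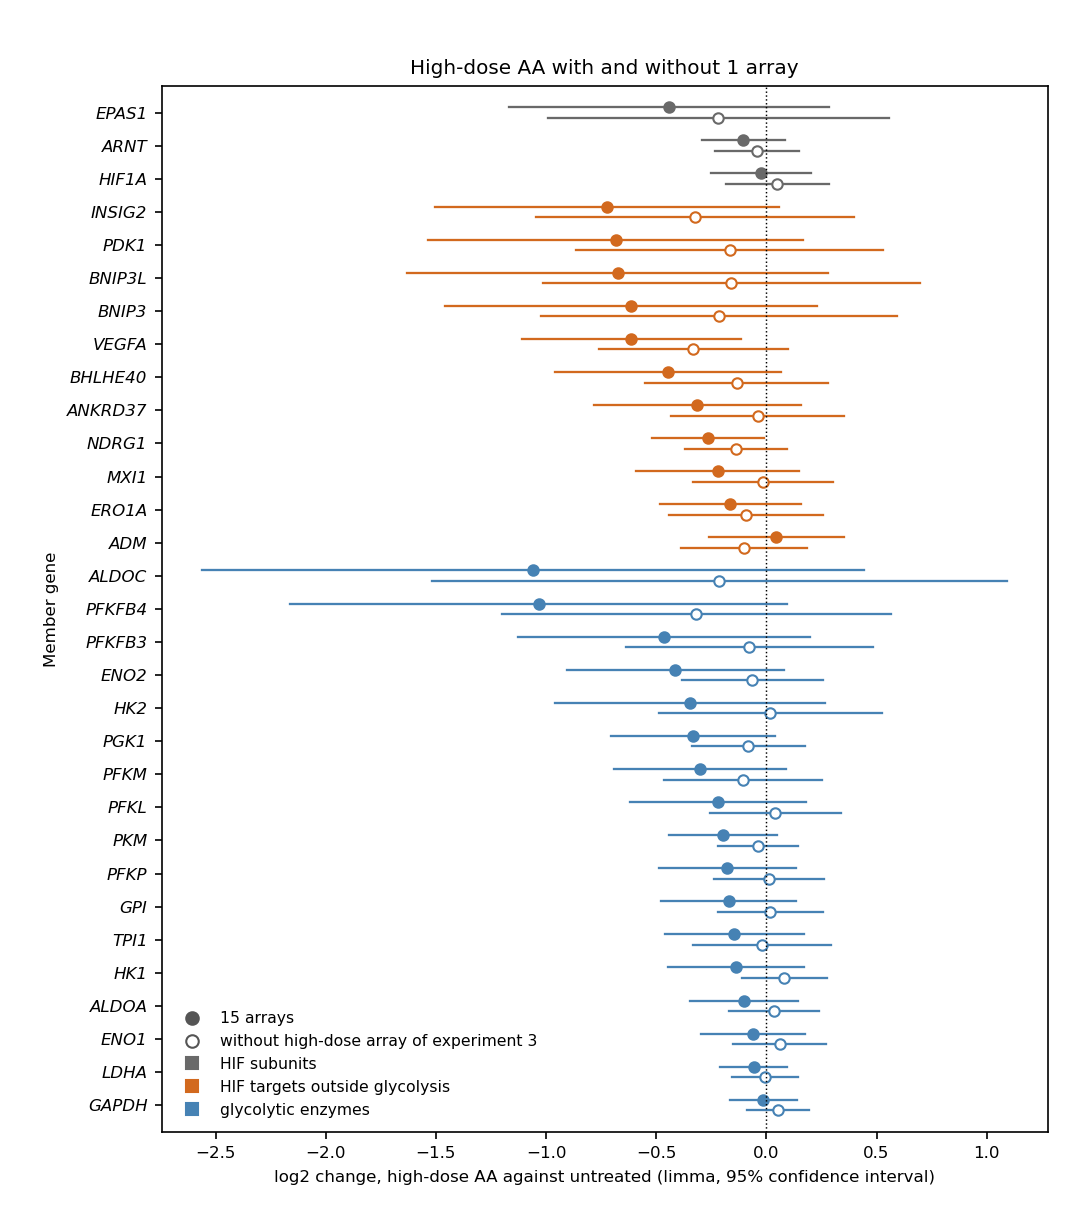
Log2 change of each member at high-dose AA against untreated cells in limma, with 95% confidence intervals, from 15 arrays (filled points) and without the high-dose array of experiment 3 (open points), coloured by group. With 15 arrays only the intervals of VEGFA and NDRG1 lie below 0, and without that array none does.

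The members' changes with IFN-α lay between -0.15 (PFKM) and 0.16 (PFKFB4), and the smallest unadjusted p was 0.412 in limma. In experiment 1, the IFN-α array was below the untreated array for only 4 of 31 members, beside 15011 of 28926 clusters. The median difference there was 0.17 over the members, 0.29 over the HIF targets and 0.13 over the enzymes, and PFKFB4 was higher by 0.62. In experiments 2 and 3 the median members were at 0.01 and -0.06. High-dose AA against IFN-α differed by medians of -0.45 over the HIF targets and -0.22 over the enzymes, against 0.03 over all clusters. Of the members, 30 of 31 were lower at the high dose, beside 12482 of 28926 clusters. Of these members, 4 had a p under 0.05 in limma (VEGFA, NDRG1, INSIG2 and PFKFB4, beside 4.15% of clusters). This comparison shares its high-dose arrays with that against untreated cells, and without the high-dose array of experiment 3 its medians were -0.16 and -0.03 and none of the 4 remained below 0.05.

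The pathway holds further genes, of which 60 were listed and 53 had a cluster of their own, and none of them was called at any dose or with IFN-α. At a p under 0.05 in limma, 4 of 53 were lower under high-dose AA, 2 under low-dose AA, 1 under intermediate-dose AA and 1 with IFN-α, beside 3.62%, 1.49%, 1.47% and 0.522% of all clusters, and 0 were higher. At the high dose, the 3 with the smallest p were HILPDA, a lipid droplet protein (-0.86 ± 0.33, adjusted p = 0.441), WSB1, part of a ubiquitin ligase (-0.42 ± 0.16, adjusted p = 0.441), and SLC2A3, a glucose transporter (-0.66 ± 0.26, adjusted p = 0.441). Leaving out the high-dose array of experiment 3 gave -0.46 ± 0.28, -0.25 ± 0.15 and -0.44 ± 0.26. Of the 20 other HIF targets, 8 were lower by more than 0.5 at the low dose of experiment 3 (2.46% of all clusters and 3.28% of the brightest 25%) and 12 at the high dose (10.5% and 20.7%), with medians of -0.44 and -0.76. KDM3A, a histone demethylase, was number 4 of all clusters at the low dose there, at -1.66, and HILPDA number 7, at -1.51, both named after their values were seen. The 20 other glycolysis genes, which include enzyme forms of liver, muscle and testis, had medians of 0.04 and -0.03 on these arrays, with 2 and 4 lower by more than 0.5. The 13 genes of oxygen sensing had medians of -0.09 and -0.12, with 1 and 3 lower by more than 0.5. EGLN1, the main prolyl hydroxylase and itself a HIF target, differed by -0.72 and -0.94. It was not the lowest of this list at the high dose, where HIF1AN differed by -1.28. VHL read 6.93 on that array, against 8.07 on the untreated array of experiment 3.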

How the data were processed

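RNA of MT-2 cells was hybridised to Affymetrix Human Gene 1.0 ST arrays. The authors obtained the values with RMA, which corrects the background, equalises the distributions of the arrays by quantiles and combines probes, and the log2 values per transcript cluster were used as deposited. Clusters were named by the platform annotation, in which 19310 carry 1 gene symbol, 1752 several and 7864 none, and only the first kind was read. Quantile normalization gives all arrays a like distribution, so a difference is relative to the other clusters of an array.

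All 28926 clusters were fitted in 1 limma model (limma 3.58.1, R 4.3.3) of 15 arrays with 10 residual and 3.91 prior degrees of freedom. Contrasts compared each treatment with untreated cells and high-dose AA with IFN-α, and a slope on the AA dose used the 12 arrays without IFN-α. The study's methods set a call at p under 0.001 without adjustment (two-sided), where chance gives 28.9 calls per comparison, and adjusted p-values are Benjamini-Hochberg over all clusters. The study's methods name no block. Replicate numbers stand for the shared tag: after removal of condition means, arrays of the same number correlated with a median of 0.281 (30 pairs, -0.194 to 0.536) and others with -0.172 (60 pairs), so the experiment was also fitted as a block (fixed, or random with statmod 1.5.0). Differences within experiments are treated minus untreated array of the same tag, with no test. The procedure was tested on simulated data.

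The members, the gene lists and the comparisons were chosen with earlier results of these data known, so no test over a list was run. Every measured member is named, and values on every array are given for HIF1A, for members called in a comparison and for the 4 members of each larger group with the smallest p against untreated cells at each treatment or on the slope. EPAS1 was added for its call under the block. Alternatives were the block, the variance settings, a filter on dim clusters, models of the compared groups alone, array weights, cyclic loess, and leaving out each array or experiment. Promoters came from a RefSeq table. Protein sequences and raw intensities were not used here. The plots were made in Python 3.11.15 (matplotlib 3.10.9).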

Additional observations from a re-analysis of the deposited data

How the results depend on the processing

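Each count of called members stayed at 0 under every alternative (blocks, variance settings, dim-cluster filter, array weights, cyclic loess, compared groups alone, adjusted threshold, and leaving out arrays or experiments), except high-dose AA against IFN-α, where the fixed replicate block gave 1 (EPAS1). The block changed no other call. The count of members lower by more than 0.5 with IFN-α in experiment 3 went from 1 to 0 after cyclic loess, an alternative chosen after seeing the data, and the cause was not tested. Of 1206 alternative values for the 45 gene changes named, 1177 kept their direction and their side of the threshold, 29 changed direction, and 26 of those came from leaving out an array or an experiment. The change of HIF1A at the high dose was 0.0062 after cyclic loess and 0.049 without the low- and high-dose arrays of experiment 3 (added later), and its slope was -0.047 with array weights.

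Leaving out 1 array or experiment at a time, the named changes whose sign turned ranged as follows: with IFN-α, -0.0041 to 0.10 for HIF1A, -0.14 to 0.056 for ADM, -0.031 to 0.14 for NDRG1, -0.010 to 0.22 for ANKRD37, -0.031 to 0.11 for MXI1, -0.018 to 0.24 for HK2 and -0.37 to 0.015 for PFKM; at the intermediate dose, -0.18 to 0.043 for NDRG1, -0.15 to 0.014 for ERO1A, -0.36 to 0.018 for PFKM, -0.42 to 0.071 for PFKFB4 and -0.28 to 0.043 for ENO2; at the high dose, -0.15 to 0.060 for HIF1A and -0.69 to 0.0055 for ENO2; at the low dose, -0.22 to 0.013 for GPI; and on the slope, -0.11 to 0.066 for HIF1A. The causes were not tested. At the high dose the median over the HIF targets ranged from -0.65 to -0.14 and over the enzymes from -0.35 to 0.0055, and at the low dose from -0.47 to -0.02 and from -0.18 to 0.01. Without the intermediate-dose array of experiment 3, the medians at that dose were 0.03 and 0.04, and without that of experiment 1 they were -0.18 and -0.06. With 3 arrays per condition of a single cell line, and differences within an experiment resting on 1 array a side, the size of any change is poorly bounded.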
